A study of Mus musculus with 8 samples.

Results

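The genes described here encode the vesicle and active zone machinery of the presynaptic terminal. They were chosen by name, as 41 gene symbols of 24420 shared by all count tables, and all 41 were found in all 8 libraries. All 41 also passed the filter on low counts, which left 14809 genes tested. Synaptic vesicles are filled with transmitter, held near the membrane by synapsins and Rab3 proteins, and docked and primed at the active zone by large scaffolds and Munc13 proteins. Calcium binding to synaptotagmins then triggers fusion through the SNARE proteins, and dynamin, endophilin and their partners retrieve the membrane. In the prefrontal cortex most of this machinery sits in glutamatergic pyramidal cells and GABAergic interneurons.

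Poly(A) RNA was sequenced from prefrontal cortical slices of male mice in 3 groups. The romidepsin group had 2 libraries, from heterozygous Shank3+/ΔC mice given the histone deacetylase inhibitor romidepsin. They received 3 daily intraperitoneal injections of 0.25 mg/kg, and the slices date from 1 day after the final injection. The saline group had 3 libraries, from Shank3+/ΔC mice given saline. Both mutant groups carry a C-terminal (exon 21) deletion of Shank3, the gene of a postsynaptic scaffold, in 1 copy in all cells. The wild-type group had 3 libraries from littermates, for which the labels name no treatment, so the genotype and the saline injections cannot be told apart in that contrast. The labels give ages of 5 to 6 weeks, the series text 5 to 8 weeks, and neither says whether each library is 1 animal. The p-values therefore measure only the spread between these libraries, which may be technical.

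Counts on genes totalled 7783538 to 15156318 per library, of which the 41 genes took 2.11% to 2.55%. Single members had between 65 reads (Syt2) and 37585 reads (Snap25) in a library. The labels call the cells neurons, but the slices also held glial RNA. The summed level of 8 astrocyte markers was 2455 to 2612 CPM (the usual unit of reads relative to the library's total, here adjusted with TMM factors) in the romidepsin group, 2344 to 2815 CPM in the saline group and 2152 to 3036 CPM in wild type. The 11 oligodendrocyte lineage markers summed to 3466 to 3932, 3096 to 5623 and 3190 to 5075 CPM in the same groups. The 5 red blood cell markers summed to at most 2.51 CPM in any library, with 4 of them at 0 in at least 1 library. The 11 endothelial and mural markers summed to 299 to 341 CPM in the romidepsin group, 234 to 308 CPM in the saline group and 303 to 378 CPM in wild type, the 9 meningeal markers to 118 to 175, 98.0 to 232 and 93.6 to 154 CPM, and the 7 olfactory bulb markers to 24.0 to 25.3, 28.8 to 67.8 and 18.2 to 46.0 CPM. Their part in the results on the 41 genes was not tested. In such bulk tissue, fewer cells of a type and less RNA per cell cannot be told apart.

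The vesicle membrane genes, and the SNARE fusion genes other than Vamp1, were among the abundant messages of the tissue, while the active zone genes stood at or below 52.2 CPM per kb in wild type. Levels between genes were compared as CPM per kb of annotated exons, a scale on which 28 of the 41 stood in the top 10% of the 14238 tested genes with 1 annotation entry. Of the active zone genes, Bsn (top 5.59%) and Unc13a (top 7.85%) were in that top 10%, and the others were not. The median of all 41 members in wild type was 63.6 CPM per kb, against 5.38 CPM per kb over the 14238 genes. Snap25, a SNARE of the plasma membrane, had the highest level at 386 ± 80.2 CPM per kb (SD, n = 3), rank 30 of all genes. Slc17a7, the vesicular glutamate transporter of cortical pyramidal cells, followed at 290 ± 40.5 CPM per kb, and Cplx1, a complexin that binds assembled SNAREs, at 283 ± 30.4 CPM per kb. Vamp2, the main vesicle SNARE of the forebrain, stood at 273 ± 30.2 CPM per kb. These levels overlapped between neighbours, as they did in 33 of the 40 neighbouring pairs along the whole order. The order also depended on the length used. Per kb of the longest transcript, Vamp2 stood at 472, Syp at 467 and Syt1 at 332 CPM per kb, above Cplx1 at 283.

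Within each role the genes covered a wide range. Among calcium sensors, Syt1, the sensor of fast synchronous release, stood at 192 ± 32.7 CPM per kb in wild type, and Syt2, its fast counterpart in the hindbrain and in fast-spiking interneurons, at 1.62 ± 0.435 CPM per kb, the lowest level of the 41. Syt12 (7.87 CPM per kb) and Doc2b (6.16 CPM per kb) were also low, while Syt11 was at 164 CPM per kb. This list holds the synaptotagmin and Doc2 genes by family, and not all of their proteins bind calcium, Syt11 being an example. Among synapsins, the level was 193 ± 20.6 CPM per kb for Syn1, 92.4 ± 11.1 for Syn2 and 4.10 ± 0.224 for Syn3. Per kb of the longest transcript these stood at 196, 169 and 10.5 CPM per kb. In the active zone, Bsn (bassoon) led at 52.2 ± 2.53 CPM per kb and its giant relative Pclo (piccolo) stood at 18.03 ± 0.408. Erc1 at 5.39 and Rims3 at 4.88 CPM per kb ended that list. Dnm1, the dynamin of nerve terminals, led the retrieval genes at 252 ± 34.5 CPM per kb, with Amph, Bin1, Sh3gl2 and Synj1 between 52.1 and 60.4 CPM per kb.

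**Figure D1:**
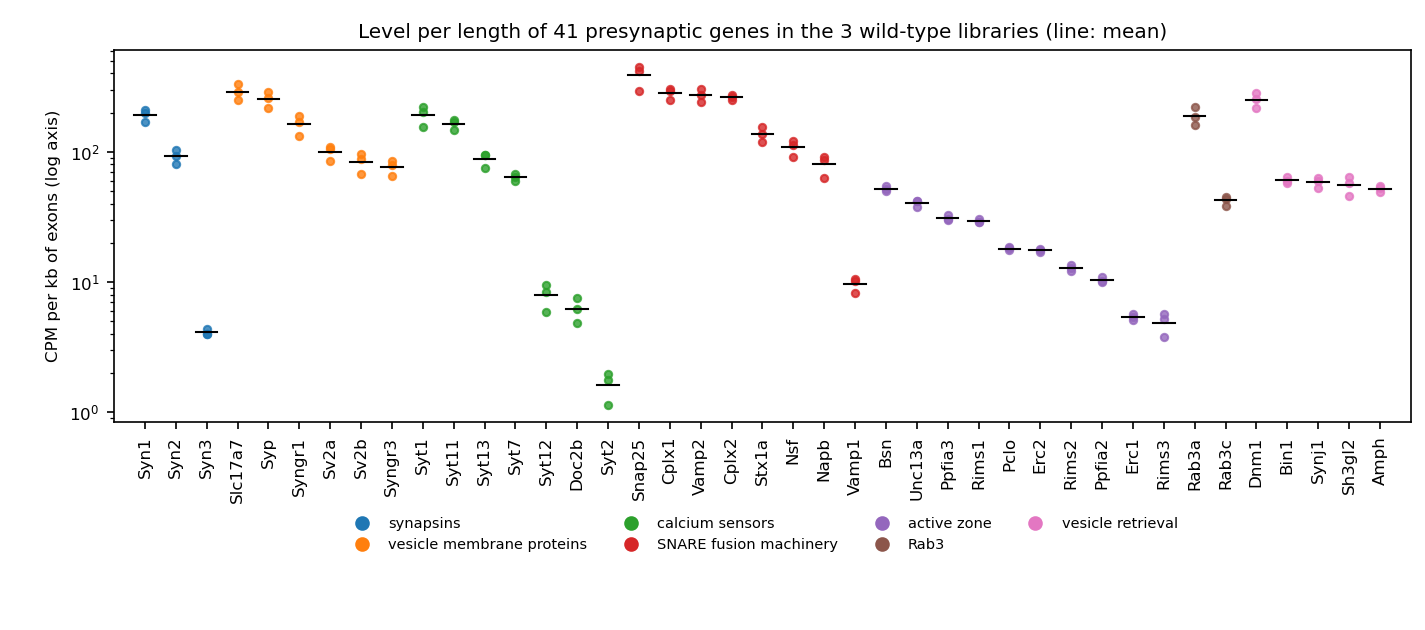
Level per length (CPM per kb of exons, log axis) of the 41 genes in wild type, by role; points are the 3 libraries and lines their mean. Levels run from 1.62 CPM per kb for Syt2 to 386 CPM per kb for Snap25, and the active zone genes lie at or below 52.2 CPM per kb.

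None of the 41 genes passed the test in any of the 3 comparisons. Genes were tested with edgeR's quasi-likelihood test over all 14809 genes, with a Benjamini-Hochberg adjusted p under 0.05 as threshold. Over all genes 0.00675% passed in saline against wild type, 0% in romidepsin against saline and 0.00675% in romidepsin against wild type. The smallest adjusted p of a member was 0.465 for saline against wild type, 1.00 for romidepsin against saline and 0.999 for romidepsin against wild type. Also DESeq2 and limma-voom called 0 members in each comparison. Of all 14809 genes, DESeq2 called 31, 2 and 4 in saline against wild type, romidepsin against saline and romidepsin against wild type. For limma-voom these were 1, 0 and 1. The 95% intervals, which are for each gene alone, bound the size of the differences. They lay within 1.5-fold in either direction for 37 of 41 genes in saline against wild type, 38 of 41 in romidepsin against saline and 40 of 41 in romidepsin against wild type. The exceptions were Syt2, Syt12, Doc2b and Vamp1 in the first, Syt2, Syt12 and Vamp1 in the second, and Doc2b in the third. Syt2 in romidepsin against saline was the only member and comparison whose interval reached past 2-fold.

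At an unadjusted p under 0.05 there were 7 members in saline against wild type, which is 17.1% of them against 8.39% of all tested genes. Of these, 2 were higher (Syn3 and Rab3c), where 3.59% of all genes were, and 5 lower (Bsn, Unc13a, Cplx1, Vamp1 and Doc2b), where 4.8% were. In romidepsin against saline there were 2 members, Bsn and Cplx1, or 4.88% against 3.26% of all genes. Both were higher, where 1.73% of all genes were, and 0 were lower, where 1.53% were. Romidepsin against wild type had 1 member, Syn3, or 2.44% against 3.24% of all genes. It was higher, where 1.46% of all genes were, and 0 members were lower, where 1.78% were. With a library left out, the share of all tested genes at that p was not taken, so changes in these counts cannot be told apart from changes in all genes. The first count depended on single libraries. Leaving out saline replicate 2 gave 1 member, wild-type replicate 2 gave 2, saline replicate 1 gave 3 and either romidepsin library gave 4. With wild-type replicate 1 left out all 7 were higher, and with wild-type replicate 3 left out 8 of 9 were lower. The second count became 5 when saline replicate 3 was dropped, 1 when saline replicate 1 or romidepsin replicate 1 was, and 0 when romidepsin replicate 2 was. The third became 4 when wild-type replicate 1 was dropped, 3 for wild-type replicate 3, 2 for wild-type replicate 2 or saline replicate 2, and 0 for romidepsin replicate 2. Fitted log2 fold changes were above 0 for 23 of 41 members in saline against wild type (51.3% of all genes), 26 of 41 in romidepsin against saline (49% of all genes) and 32 of 41 in romidepsin against wild type (50% of all genes). The median log2 fold change of the 41 was 0.027 in saline against wild type, 0.066 in romidepsin against saline and 0.058 in romidepsin against wild type, where that of all tested genes was 0.0047, -0.0029 and 4.16e-05. The first median was -0.051 and the third -0.0056 without wild-type replicate 3. The second comparison shares its saline libraries with the first, so their opposite directions are not separate observations.

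**Figure D2:**
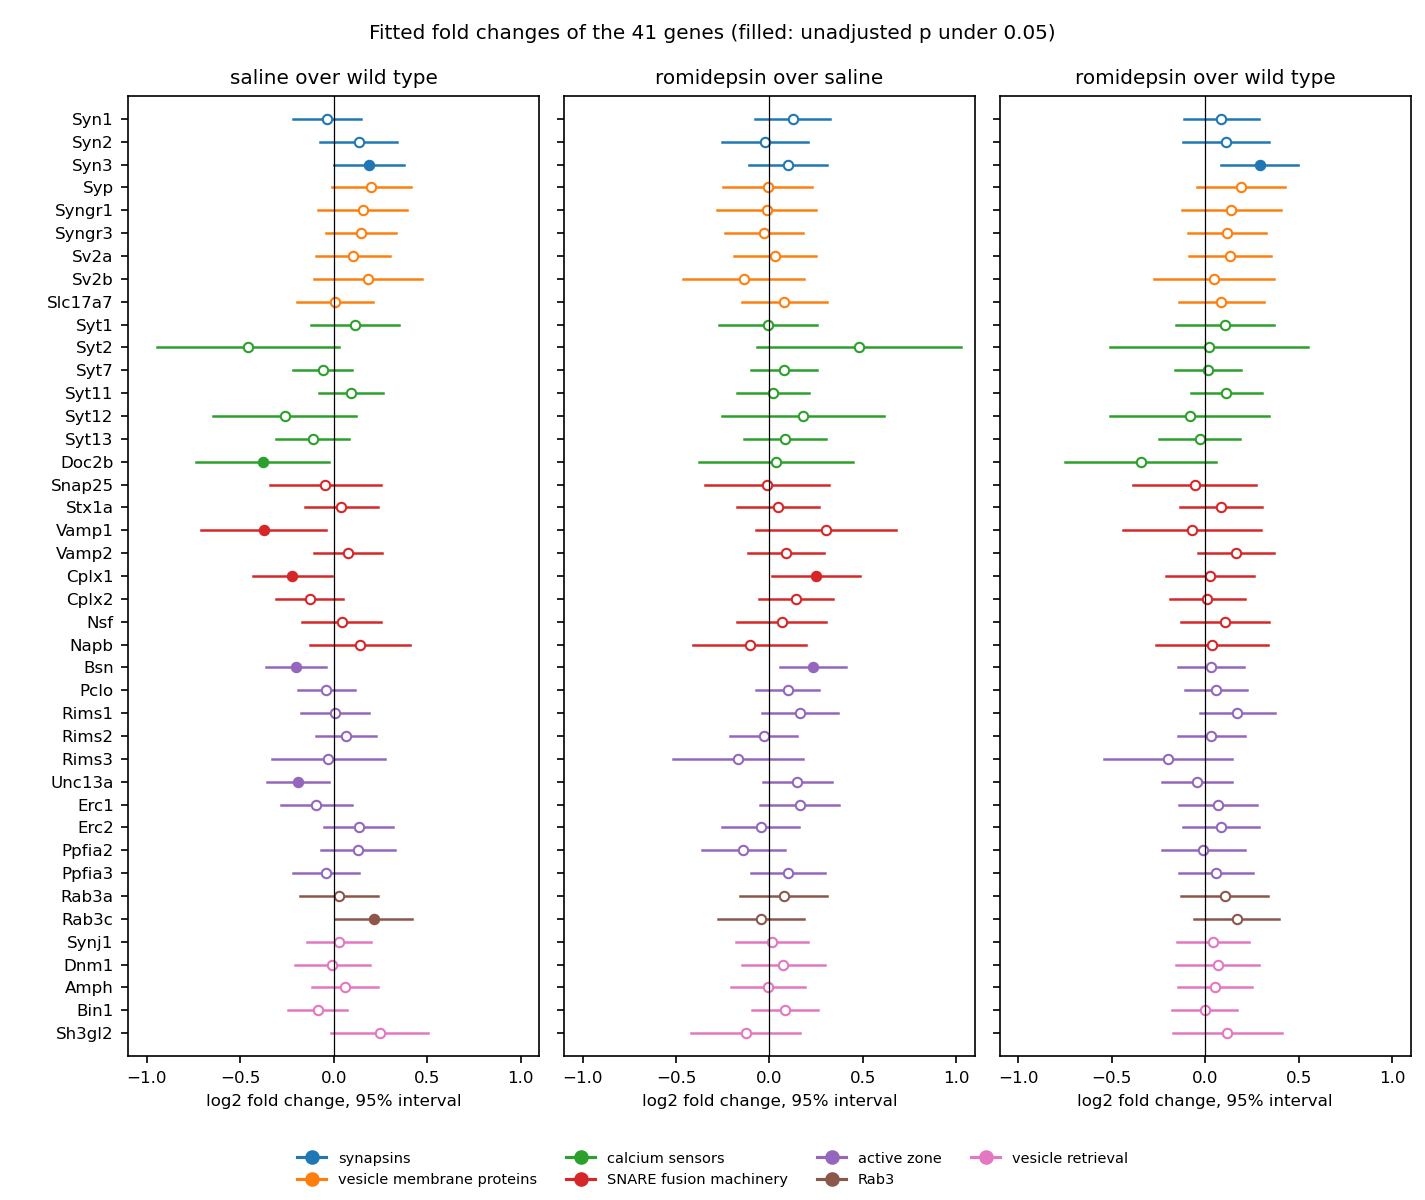
Fitted log2 fold changes of the 41 genes with 95% intervals, by role, for saline over wild type, romidepsin over saline and romidepsin over wild type; filled points have an unadjusted p under 0.05. The 7 filled points at left, 2 in the middle and 1 at right did not pass after adjustment, and Syt2 has the widest intervals.

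Among the active zone genes, Bsn and Unc13a had lower levels under saline than wild type had, though neither passed. Bsn had 822 and 876 CPM in the romidepsin group, 735, 699 and 736 CPM in the saline group, and 877, 819 and 800 CPM in wild type. All 3 saline libraries lay below every other library. The saline group stood at 0.869-fold of wild type (95% interval 0.779 to 0.971, edgeR adjusted p = 0.465). The romidepsin group stood at 1.17-fold of saline (1.04 to 1.33, edgeR adjusted p = 1.00) and at 1.02-fold of wild type (0.902 to 1.15). Bsn was the only 1 of the 41 whose groups did not overlap in saline against wild type, where 12.6% of all genes did not. It was lower, where 6.36% of all genes were, and 0 members were higher, where 6.26% were. Leaving out wild-type replicate 3 gave 1 member above (Syn3) and 10 below, against 12.4% and 12% of all genes, leaving out wild-type replicate 1 gave 7 above and 1 below, against 12.8% and 13.7%, and leaving out saline replicate 3 gave 2 above and 7 below, against 11.8% and 11.6%. Bsn was among those below in each of these. The Bsn fold kept its direction in the 15 alternative settings of saline against wild type and of romidepsin against saline, with log2 values from -0.24 to -0.16 and from 0.18 to 0.28. Its unadjusted p exceeded 0.05 without wild-type replicate 1 in the first contrast and without romidepsin replicate 2 in the second.

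Unc13a encodes Munc13-1, which primes docked vesicles. It had 480 and 511 CPM under romidepsin, 431, 431 and 479 CPM in the saline group and 525, 530 and 477 CPM in wild type. Saline replicate 3 overlapped wild type, and the saline group stood at 0.875-fold (0.780 to 0.983, edgeR adjusted p = 0.526). Its unadjusted p exceeded 0.05 when saline replicate 1 or 2, or wild-type replicate 1 or 2, was left out. In the GENCODE annotation 3.92% of its exonic bases lie under exons of Colgalt1 on the other strand, and since the strand setting of the counting is not given, reads of both can mix. Colgalt1 stood at 61.5 and 61.8 CPM under romidepsin, 65.9, 60.9 and 58.9 CPM in the saline group, and 59.0, 56.5 and 57.1 CPM in wild type, with a fitted saline over wild type log2 fold change of 0.11.

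The other 8 active zone genes had log2 fold changes between -0.09 and 0.13 in saline against wild type. Pclo had 418 and 425 CPM under romidepsin, 396, 410 and 376 CPM in the saline group and 407, 413 and 395 CPM in wild type, with a saline over wild type fold of 0.973 (0.877 to 1.08). Relative to Pclo, Bsn reads were 197% and 206% in the romidepsin group, 186%, 170% and 196% in the saline group and 216%, 198% and 203% in wild type. The saline ratios were the lowest 3, though saline replicate 3 at 195.8% was just under romidepsin replicate 1 at 196.7%. How often ratios of other gene pairs separate in this way was not counted. Rims1, which ties Rab3 on vesicles to calcium channels, had a romidepsin over wild type fold of 1.13 (0.979 to 1.30), with no overlap between the groups. Its relatives Rims2 and the short Rims3 stood at 1.02 and 0.871 in the same contrast. Erc1 and Erc2, which encode ELKS and CAST, had saline over wild type folds of 0.938 and 1.096, and the liprin genes Ppfia3 and Ppfia2 of 0.971 and 1.09. Ppfia2 shares 22.3% of its exonic bases with Acss3 on the other strand, which had at most 0.641 CPM in any library. Summed over the 10 genes, the active zone list held 2782 to 2853 CPM in the romidepsin group, 2561 to 2633 CPM in the saline group and 2652 to 2828 CPM in wild type. Bsn had the most reads in these sums. The mean log2 difference from wild type, which weighs the 10 genes alike, overlapped between saline and wild type. It was 0.025 and 0.028 under romidepsin, -0.064, 0.0062 and -0.023 under saline, and 0.038, 0.023 and -0.060 in wild type. In saline against wild type 4 of the 10 were higher and 6 lower.

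Both complexins and the vesicle SNARE Vamp1 had lower levels in saline replicates 1 and 2 than in the third, and none of them passed. Cplx1 had 616 and 648 CPM under romidepsin, 499, 492 and 605 CPM in the saline group, and 647, 669 and 545 CPM in wild type. Romidepsin libraries lay above all saline libraries at 1.19-fold (1.01 to 1.40, edgeR adjusted p = 1.00). Saline stood at 0.858-fold of wild type (0.742 to 0.993, edgeR adjusted p = 0.567), with wild-type replicate 3 inside the saline range. The unadjusted p stayed under 0.05 in 7 of 15 alternatives for Cplx1 in saline against wild type, and in 10 of 15 in romidepsin against saline. It exceeded 0.05 in the first contrast when any library other than saline replicate 3 or wild-type replicate 3 was left out, and in the second when saline replicate 1 or 2 or either romidepsin library was. Cplx2, the other complexin, had 1310 and 1294 CPM under romidepsin, 1158, 1082 and 1304 CPM in the saline group, and 1299, 1237 and 1341 CPM in wild type. It had a saline over wild type fold of 0.914 (0.808 to 1.03) and a romidepsin over saline fold of 1.102 (0.960 to 1.27).

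Vamp1, the vesicle SNARE of fast-spiking and subcortical terminals, had 91.9 and 94.3 CPM under romidepsin, 64.9, 64.8 and 98.2 CPM in the saline group and 103, 107 and 82.9 CPM in wild type. Its saline over wild type fold was 0.771 (0.612 to 0.973, edgeR adjusted p = 0.534). Leaving out saline replicate 3 gave a log2 fold change of -0.60, against -0.37 with all libraries, and an edgeR adjusted p of 0.0927, the smallest of any member in any alternative, while leaving out saline replicate 1 or 2, or wild-type replicate 1 or 2, gave an unadjusted p over 0.05. Vamp2 had a fold of 1.05 (0.928 to 1.198) in the same contrast. As a share of Vamp2 reads, Vamp1 reads were 7.69% and 8.30% in the romidepsin group, 6.00%, 5.83% and 8.95% in the saline group, and 8.91%, 10.3% and 8.97% in wild type.

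Syt2, named here after its values were seen, followed the same libraries. It had 11.9 and 13.2 CPM under romidepsin, 8.39, 6.81 and 12.2 CPM in the saline group and 13.5, 15.0 and 8.62 CPM in wild type. Saline replicates 1 and 2 held the lowest values, with wild-type replicate 3 just above them. Neither the saline over wild type fold of 0.727 (0.519 to 1.02) nor the romidepsin over saline fold of 1.39 (0.954 to 2.04) reached an unadjusted p under 0.05. Markers of fast-spiking interneurons, which use Syt2, Vamp1 and Cplx1, were lowest in saline replicates 1 and 2 as well. The summed level of 10 such markers was 535 to 548 CPM in the romidepsin group, 406 to 492 CPM in the saline group and 501 to 512 CPM in wild type. None of the 10 was at 0 in any library, and 8 of 10 were lower in saline than in wild type (median log2 fold change -0.16). Pvalb, the calcium buffer parvalbumin, had 38.5 and 40.0 CPM under romidepsin, 25.8, 22.8 and 39.6 CPM in the saline group and 36.6, 41.9 and 31.4 CPM in wild type. Other members were also lower in saline replicates 1 and 2 than in the third, Unc13a and Cplx2 among them. Syt12 had 31.2, 33.3 and 45.7 CPM in the saline group and 52.1, 46.4 and 32.4 CPM in wild type. The 14 inhibitory neuron markers summed to 1980, 1808 and 1996 CPM under saline and 1896, 1859 and 1916 CPM in wild type. Of these 14, 9 were higher in saline. The part of fast-spiking cells in the 3 presynaptic genes was not tested.

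**Figure D3:**
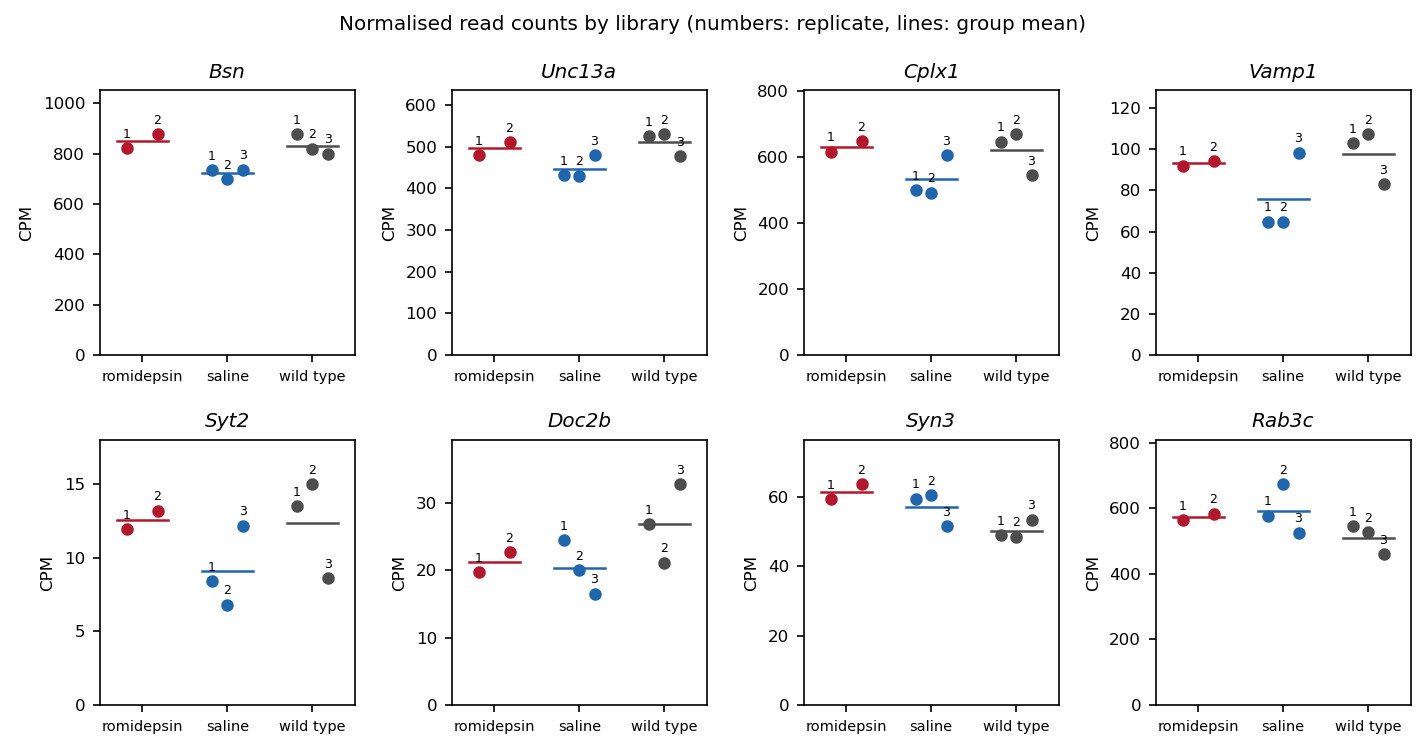
Normalised read counts (CPM, axes from 0) of 8 genes in each library, with romidepsin, saline and wild-type libraries from left to right; numbers are replicates and lines group means. Bsn separates the 3 saline libraries from the rest. Cplx1, Vamp1 and Syt2 are low in saline replicates 1 and 2 and near the other groups in saline replicate 3. Wild-type replicate 3 is the lowest wild-type library for these genes.

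The remaining fusion genes differed little. Snap25 had 2499 and 2538 CPM in the romidepsin group, 2187, 2750 and 2684 CPM in the saline group and 3028, 2831 and 2001 CPM in wild type. Wild type held both its highest and its lowest library, and the saline over wild type fold was 0.969 (0.790 to 1.19). Stx1a, the syntaxin of the plasma membrane, Nsf, the ATPase that takes SNARE complexes apart, and its adaptor Napb had saline over wild type folds of 1.03, 1.03 and 1.102. Their romidepsin over saline folds were 1.03, 1.05 and 0.930.

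Among the other genes of the calcium sensor list, Doc2b, a high-affinity sensor linked to spontaneous release, had a lower mean under saline than in wild type, which did not pass. It had 19.7 and 22.6 CPM under romidepsin, 24.4, 20.01 and 16.5 CPM in the saline group and 26.8, 21.1 and 32.8 CPM in wild type. The groups overlapped, and the saline over wild type fold was 0.768 (0.6001 to 0.983, edgeR adjusted p = 0.561). Its log2 fold change of -0.38 was -0.21 without wild-type replicate 3, and its unadjusted p exceeded 0.05 in 6 of 15 alternatives, limma-voom among them. Syt1 had 1707 and 1739 CPM under romidepsin, 1605, 1837 and 1753 CPM in the saline group and 1831, 1674 and 1301 CPM in wild type. Its saline over wild type fold was 1.08 (0.918 to 1.27). Syt7, a slow sensor of high affinity, stood at 0.960-fold, Syt11 at 1.07-fold, Syt13 at 0.925-fold and Syt12 at 0.834-fold of wild type in the saline group. All 4 had intervals that included 1.

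Of the synapsins, which tether vesicles in the reserve pool, Syn3 had higher levels in both mutant groups, though neither difference passed. It had 59.4 and 63.7 CPM under romidepsin, 59.5, 60.6 and 51.6 CPM in the saline group and 48.9, 48.5 and 53.5 CPM in wild type. Both romidepsin libraries lay above the 3 wild-type libraries, while the saline group overlapped them. Romidepsin over wild type was 1.22-fold (1.06 to 1.41, edgeR adjusted p = 0.999) and saline over wild type 1.1-fold (1.00 to 1.30, edgeR adjusted p = 0.584). The unadjusted p stayed under 0.05 in 14 of 15 alternatives in the first contrast, the exception being without romidepsin replicate 2, and in 5 of 15 in the second. Exons of Timp3, a metalloproteinase inhibitor gene inside Syn3 on the other strand, cover 14.1% of the exonic bases of Syn3. Timp3 had 125 and 109 CPM under romidepsin, 127, 99.7 and 89.9 CPM in the saline group and 87.5, 96.0 and 136 CPM in wild type. Its wild-type replicate 3 was the highest of all libraries, as it was the highest of the wild-type libraries for Syn3, and a mixing of reads was not tested.

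Syn1 had 680 and 674 CPM in the romidepsin group, 606, 614 and 646 CPM in the saline group, and 695, 655 and 563 CPM in wild type. Romidepsin libraries lay above the saline libraries at 1.09-fold (0.948 to 1.253), inside the range of wild type. Syn2 stood at 0.983-fold in the same contrast (0.838 to 1.15). Of the Rab3 GTPases of the vesicle surface, Rab3c had 564 and 584 CPM under romidepsin, 577, 673 and 525 CPM in the saline group, and 545, 527 and 460 CPM in wild type. Saline over wild type was 1.16-fold for Rab3c (1.01 to 1.34, edgeR adjusted p = 0.576), with overlapping groups. Its log2 fold change of 0.21 became 0.11 when saline replicate 2 was dropped and 0.14 when wild-type replicate 3 was, and its unadjusted p stayed under 0.05 in 8 of 15 alternatives. Rab3a had 451 and 451 CPM under romidepsin, 405, 442 and 436 CPM in the saline group, and 488, 412 and 359 CPM in wild type, a saline over wild type fold of 1.02 (0.882 to 1.18).

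All 6 vesicle membrane genes had saline over wild type folds at or above 1, and all overlapped between the groups. Slc17a7 had 1661 and 1659 CPM under romidepsin, 1509, 1588 and 1618 CPM in the saline group and 1793, 1540 and 1358 CPM in wild type, a fold of 1.00 (0.873 to 1.16). Syp, the gene of synaptophysin, an abundant vesicle protein, stood at 1.15-fold (0.994 to 1.33). Its relatives Syngr1 and Syngr3 both stood at 1.11-fold, and the vesicle glycoprotein genes Sv2a and Sv2b at 1.07-fold and 1.136-fold. In romidepsin over saline the 6 genes lay between 0.910 and 1.06. Of the retrieval genes, Dnm1 had 1378 and 1397 CPM under romidepsin, 1308, 1317 and 1327 CPM in the saline group, and 1494, 1344 and 1134 CPM in wild type. The saline libraries lay close together inside the wild-type range, and the fold over wild type was 0.995 (0.867 to 1.143). Sh3gl2, the gene of endophilin A1, stood at 1.19-fold (0.990 to 1.42), the lipid phosphatase gene Synj1 at 1.02-fold, and the curvature proteins Amph and Bin1 at 1.04-fold and 0.942-fold.

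Wild-type replicate 3 was the lowest wild-type library for 33 of the 41 genes, where it was for 37.5% of all tested genes, and the lowest of all 8 libraries for 25, where it was the lowest of all 8 for 21.2% of all tested genes. The mean log2 difference of the 41 from their wild-type mean was 0.046 and 0.072 under romidepsin, -0.060, 0.029 and 0.026 under saline, and 0.11, 0.036 and -0.15 in wild type. Wild-type replicate 3 also had the lowest neuron marker level (4069 CPM summed over 8 genes) and the highest astrocyte marker level (3036 CPM). Other neuronal lists did not follow in their sums. The 10 excitatory neuron markers summed to 7187, 6613 and 7113 CPM in wild-type replicates 1 to 3, with mean log2 differences of 0.14, -0.0051 and -0.13. The 14 inhibitory neuron markers summed to 1896, 1859 and 1916 CPM. Saline replicate 1 held the lowest mean of the saline libraries and the highest astrocyte marker level among them, at 2815 CPM, though its vesicle membrane genes were above the wild-type mean (0.052). The part of the cell mixture in these library differences was not tested. The median SD of the members within groups was 0.122 on the log2 scale, against 0.0948 for 4241 other genes of like level and 0.146 for all tested genes.

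**Figure D4:**
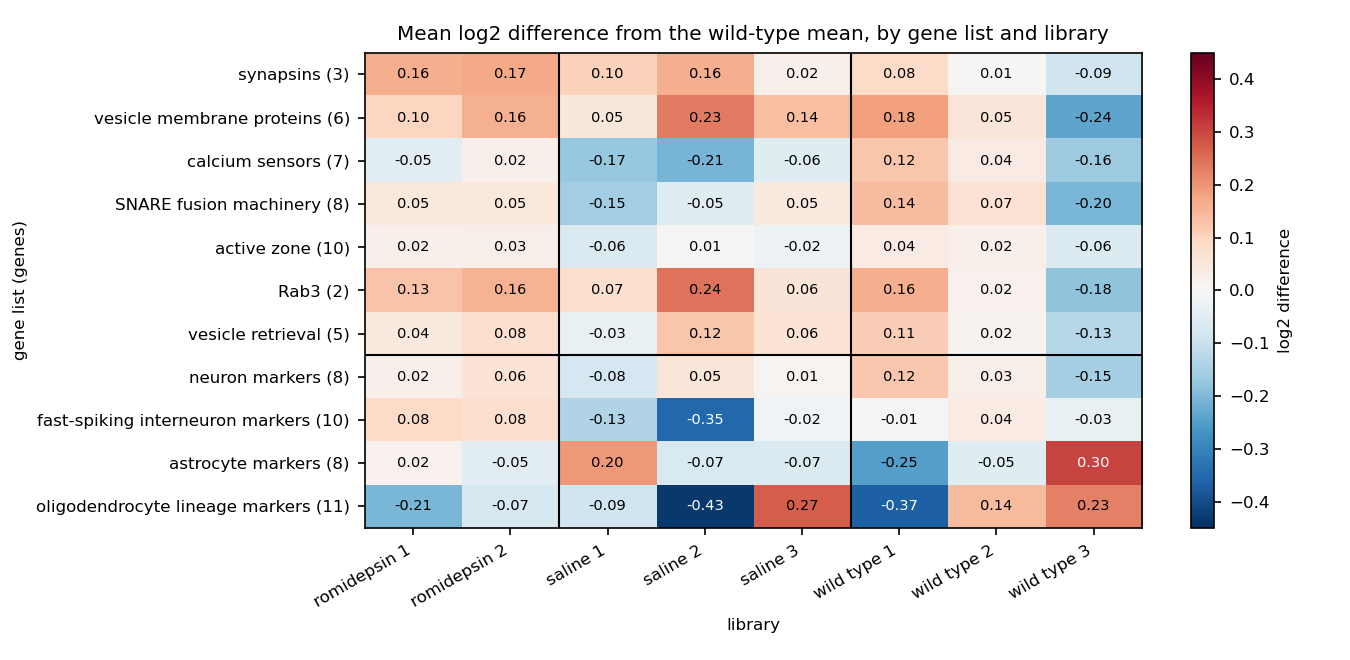
Mean log2 difference from the wild-type mean for the 7 roles and for 4 marker lists (number of genes in brackets), in each library; red is higher and blue lower. In wild-type replicate 3 all 7 roles are at or below -0.06 while astrocyte markers are at 0.30, and saline replicate 2 has the lowest score of fast-spiking interneuron markers at -0.35.

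In romidepsin against saline, 11 of 41 members (26.8%) lay above all saline libraries, where 10.8% of all tested genes did, and 0 lay below, where 10.2% did. The 11 were Syn1, Slc17a7, Syt7, Syt13, Vamp2, Cplx1, Bsn, Pclo, Unc13a, Rab3a and Dnm1, with log2 fold changes from 0.075 to 0.25. With saline replicate 1 left out, 11 members lay above and 7 below, against 18.5% and 17.6% of all genes, and Snap25, Syt1, Syngr1, Syngr3, Napb, Rims3 and Sh3gl2 were the 7. With saline replicate 2 left out, 15 lay above and 0 below, against 17.6% and 17.7% of all genes. With saline replicate 3 left out, 18 lay above and 1 below, against 17.9% and 17.6% of all genes. With romidepsin replicate 1 left out, 17 lay above and 1 below, against 23.5% and 22.9%. With romidepsin replicate 2 left out, 15 lay above and 3 below, against 22.7% and 22.1%. In romidepsin against wild type, 5 members lay above all wild-type libraries (Syn3, Pclo, Rims1, Erc2 and Rab3c), or 12.2% against 9.34% of all genes, and 0 below against 9.08%. Leaving out wild-type replicate 1 made that 23 above, against 18.5% of all genes, and leaving out romidepsin replicate 1 made it 10 above, against 21.6%. Leaving out wild-type replicate 3 made it 6 above and 8 below, against 19.0% and 18.2%.

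Other genes of release and retrieval, from lists of 64 and 27 genes, gave no call in any comparison. Of the 63 release genes in the tables, 8 were higher and 1 lower at an unadjusted p under 0.05 in saline against wild type, where 3.59% and 4.8% of all genes were. Syt5, another synaptotagmin gene, had 181 and 191 CPM under romidepsin, 178, 194 and 187 CPM in the saline group and 174, 153 and 144 CPM in wild type. All saline libraries lay above all wild-type libraries (log2 fold change 0.25, edgeR adjusted p = 0.417). Fcho1, an early endocytosis gene, had the smallest p of the retrieval genes, at 77.0, 69.5 and 81.1 CPM in the saline group and 86.8, 92.04 and 90.8 CPM in wild type (edgeR adjusted p = 0.416). In romidepsin against saline, Rab3b had 63.2 and 68.6 CPM in romidepsin libraries and 57.8, 51.5 and 54.6 CPM in saline libraries. Sv2c had 8.18 and 10.9 CPM in romidepsin libraries and 7.14, 6.60 and 4.23 CPM in saline libraries (edgeR adjusted p = 1.00 for both). In romidepsin against wild type the smallest p were those of Syt5 and of Ap2a2, a subunit of the clathrin adaptor, at 291 and 308 CPM under romidepsin and 276, 252 and 254 CPM in wild type (edgeR adjusted p = 0.999 for both).

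The 41 genes lie on 19 chromosomes, and Syngr1 and Rims2 share chromosome 15 with Shank3. Promoter windows from RefSeq (GRCm38.p6), from 250 bases before to 50 after a gene's start, were matched for 31 of the 41 by symbol, with 39 windows. Their median GC content was 62.3%, against 52.7% over all 32851 windows, and the median ratio of observed to expected CpG was 0.722, against 0.384. The GC box (GGGCGG, both strands) was in 26 of the 39 windows, or 66.7%, against 35.7% of all windows. TATAAA was in 2 of the 39 windows (5.13%), both of Sv2b, against 13.6% of all windows. The left part (TTCAGCACC) of RE1, the element bound by REST, a repressor of neuronal genes that works with histone deacetylases, was in 3 of the 39 windows (7.69%), those of Syn1, Unc13a and Ppfia3, against 0.371% of all windows. The right part of RE1 was in 1 window (2.56%), that of Unc13a, against 0.137% of all windows. In Unc13a both parts lie on the reverse strand with 8 bases between them. The cyclic AMP element TGACGTCA was in 2 windows (5.13%), of Syn1 and Sh3gl2, against 1.79% of all windows. All motifs were searched on both strands, none of their matches overlapped a different motif, and a match is a description of these letters only.

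The windows of Syn1 and Unc13a are shown because they hold those RE1 parts, which stand in capitals with the cyclic AMP element. Those of Bsn, Cplx1 and Vamp1 are shown because these genes had an unadjusted p under 0.05 in saline against wild type. Syn3, Rab3c and Doc2b, also at that p, and the window of Ppfia3 are not shown. The windows are chrX:20920869-20921168 (Syn1), chr8:71671708-71672007 (Unc13a), chr9:108190334-108190633 (Bsn) and chr5:108549978-108550277 (Cplx1), all on the minus strand, and chr6:125215331-125215630 (Vamp1) on the plus strand. Each is printed from 5′ to 3′ in the direction of the gene.
Syn1: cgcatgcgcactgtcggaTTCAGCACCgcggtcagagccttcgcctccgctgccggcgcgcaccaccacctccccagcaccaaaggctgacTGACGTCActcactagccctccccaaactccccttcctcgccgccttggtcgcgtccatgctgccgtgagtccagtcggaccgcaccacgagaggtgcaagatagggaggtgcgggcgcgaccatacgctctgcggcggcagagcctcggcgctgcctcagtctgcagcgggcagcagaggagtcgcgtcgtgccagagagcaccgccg
Unc13a: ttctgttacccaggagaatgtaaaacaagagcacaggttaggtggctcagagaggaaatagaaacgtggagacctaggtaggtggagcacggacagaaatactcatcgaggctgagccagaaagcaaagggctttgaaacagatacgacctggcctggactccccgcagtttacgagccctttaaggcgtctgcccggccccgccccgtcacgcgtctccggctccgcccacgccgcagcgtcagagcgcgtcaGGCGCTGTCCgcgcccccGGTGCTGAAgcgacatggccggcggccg
Bsn: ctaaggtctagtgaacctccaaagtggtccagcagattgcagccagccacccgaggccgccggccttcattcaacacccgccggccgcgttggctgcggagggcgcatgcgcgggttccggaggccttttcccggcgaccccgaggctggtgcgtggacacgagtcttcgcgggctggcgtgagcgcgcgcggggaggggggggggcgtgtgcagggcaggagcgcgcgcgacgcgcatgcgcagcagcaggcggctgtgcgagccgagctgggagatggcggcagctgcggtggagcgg
Cplx1: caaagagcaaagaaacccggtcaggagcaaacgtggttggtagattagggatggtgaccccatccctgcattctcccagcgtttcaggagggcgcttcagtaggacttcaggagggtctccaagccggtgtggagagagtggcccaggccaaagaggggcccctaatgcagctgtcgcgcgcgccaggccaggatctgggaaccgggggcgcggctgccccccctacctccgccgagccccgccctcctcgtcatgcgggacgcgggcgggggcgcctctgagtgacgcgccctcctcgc
Vamp1: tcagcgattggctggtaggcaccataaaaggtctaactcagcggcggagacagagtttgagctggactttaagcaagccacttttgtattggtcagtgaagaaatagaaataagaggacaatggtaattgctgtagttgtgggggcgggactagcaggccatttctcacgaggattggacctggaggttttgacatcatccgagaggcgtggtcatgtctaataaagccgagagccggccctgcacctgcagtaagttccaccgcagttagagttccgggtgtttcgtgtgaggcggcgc
The windows of Bsn, Cplx1 and Vamp1 held none of the RE1 parts or the cyclic AMP element in these spellings. Their GC content was 72.3% for Bsn, 67.0% for Cplx1 and 51.7% for Vamp1.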

How the data were processed

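Poly(A) RNA of 8 mouse prefrontal cortex samples was sequenced. Each library has a table of whole-number counts by gene symbol, deposited by the authors without normalization. Per the submitters' processing notes, bcl2fastq 2.17.1.14, TopHat2 2.1.1 and HTSeq 0.6.1 were used with mm10/GRCm38. Of the counting, neither annotation nor strand setting is given in the sources used here. Summary entries that name no gene were left out.

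Counts were tested with edgeR 4.0.16 in R 4.3.3: filterByExpr, TMM scaling and a robust quasi-likelihood fit with a term per group over all 8 libraries, adjusted by Benjamini-Hochberg over all 14809 tested genes. A prior count of 2 went into log2 levels. DESeq2 1.42.0, limma 3.58.1 voom, other scaling, no filter, the 2 groups alone, the replicate block and leaving out each library were alternatives. The fit was tested on simulated data with planted changes larger than any fitted for the members, so smaller differences were not covered. Exon lengths and overlaps are from GENCODE M21 (GRCm38). The labels' group names and replicate numbers gave the groups. Replicate libraries differed by more than sampling noise.

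Members and gene lists were chosen with earlier results of these data known. All 41 genes are named. Values of every library are given for the gene with the highest level per length of each role, for genes with an unadjusted p under 0.05, and for those without overlap between saline and wild type. Of the other release and retrieval genes, the 2 with the smallest p in each comparison are named. Any further gene with library values was picked once values were known.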

Additional observations from a re-analysis of the deposited data

How the results depend on the processing

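The 41 genes gave 0 calls in each of the 3 comparisons under all 15 alternative settings, with unadjusted counts as low as 0 and as high as 9. Over all tested genes the most calls in an alternative setting were 54, in saline against wild type without wild-type replicate 3. The count of 28 members in the top 10% by level per length was 28 or 29 under 5 alternatives. The median log2 fold change ranged from -0.051 to 0.099 in saline against wild type, from 0.038 to 0.077 in romidepsin against saline and from -0.0056 to 0.095 in romidepsin against wild type when 1 library was left out. With the replicate number as a block, the romidepsin against saline median was 0.023 and the member counts at an unadjusted p under 0.05 were 6, 1 and 1. The share of all tested genes at that p was not taken for the alternative settings. Same-numbered saline and wild-type libraries did not deviate together (correlations -0.175, 0.0185 and -0.0367 over all tested genes), and wild-type replicate 1 correlated best with saline replicate 2, so the numbers were not taken as pairs. Of the 10 pairs of member and comparison with an unadjusted p under 0.05, all kept their direction in all 15 settings, and none passed after adjustment in any. When 1 library was left out, Vamp1 in saline against wild type ranged from -0.60 to -0.27 and Doc2b from -0.55 to -0.21. Counts of members rest on 2 or 3 libraries a group. Syt2, whose fewest reads were 65 in saline replicate 2, had the widest intervals.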
